A study of Mus musculus with 24 samples.

Results

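Interferon-stimulated genes are the genes that cells switch on when interferon binds its receptors, and 47 of them were taken from a list by name. The list was chosen with earlier results of these data known. The shares of all genes given beside its counts are therefore a description and not a test. By the array's gene symbols, read without regard to case, 45 of the 47 had a probe, out of 17741 genes with a probe in all. Ifit3 and Oas1a were not analysed here. Where a gene had several probes, the brightest over the 24 arrays was taken. The members were 20 type I antiviral effectors, 6 interferon-gamma GTPases, 4 genes of class I antigen processing, 4 transcription factors, 3 genes of the ISG15 system, 3 RNA sensors, 3 genes of the PARP and DTX3L complex, and the ubiquitin ligase Trim21 with the chemokine Cxcl10.

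RNA came from sorted bone marrow cells of C57BL/6 mice labelled BAP1 KO or BAP1 WT. BAP1 is a nuclear deubiquitinase. The labels say that the animals were given tamoxifen to delete the gene throughout the body, and they give neither the Cre driver, nor the age, nor the time from injection to harvest. The groups were KO LSK cells (mice 2 and 4), WT LSK cells (mice 1 and 3), KO myeloid progenitors (mice 7 and 8) and WT myeloid progenitors (mice 5 and 6), with 3 arrays per mouse. LSK cells are lineage-negative cells that carry Sca1 and Kit, the fraction enriched for hematopoietic stem cells. The myeloid progenitors were lineage-negative cells with Kit and without Sca1. No mouse gave both populations, and the mouse was the replicate, so that each group held 2.

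Values are log2 expression, so a difference of 1 is a doubling, and the table ran from 5.66 to 15.93. The only Bap1 probe did not read lower in mice labelled KO. It read 11.96 and 11.84 in KO LSK mice against 11.55 and 11.45 in WT LSK mice (change 0.40 ± 0.18, SE, limma adjusted p = 0.321). Among myeloid progenitors Bap1 read 11.67 and 11.85 in KO mice against 11.54 and 11.59 in WT mice (0.20 ± 0.18, adjusted p = 0.843). No source says where this probe lies relative to the deleted part, so it does not check the labels. KO and WT therefore stand for the labels throughout. The Y-linked gene Kdm5d was high in mouse 1 (7.88) and mouse 5 (8.15), both WT, and lay between 5.93 and 6.02 in the other 6 mice. Of the sort's markers, the stem and early progenitor genes Mecom, Hlf, Procr and Flt3 were higher in LSK cells of both genotypes, and Elane, Gata1, Klf1 and Fcgr3 were higher in myeloid progenitors of both. Ctsg was higher in WT myeloid progenitors than in WT LSK cells and did not pass between KO populations, and Kit and Mpo passed in neither. Between KO populations 4 of the 12 markers with a probe were called higher in LSK cells and 5 lower. The remaining lower call was Slamf1, against the sort, and Slamf1 stayed under 6.5 in all 8 mice. Ly6a, which encodes Sca1, was not analysed here.

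Type I interferons signal through the receptor chains IFNAR1 and IFNAR2 to a complex that holds STAT2 and IRF9 and binds interferon-stimulated response elements. Interferon-gamma signals through its own receptor, acts on gamma-activated sites and induces IRF1, immunity-related GTPases and guanylate-binding proteins. In mice, both kinds of interferon are known to push hematopoietic stem cells out of quiescence, and many of these genes are also expressed at a basal level in stem cells without infection. Ly6a is itself an interferon-induced gene.

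RefSeq promoter windows on the mouse build GRCm38.p6, each 250 bases before to 50 after an annotated start, were found for 35 of the 45 members. The gamma-activated site, spelled TTCNNNGAA, and a paired GAAA core of the response element, which is GAAA, 2 bases of any kind and GAAA again, were searched on both strands. The paired core lay in the window of 17 of 35 members (48.6%), against 3.99% of all 27025 genes with a window. It was present in 5 of 5 GTPases with a window (Igtp, Irgm1, Irgm2, Gbp2 and Gbp3), in 6 of 15 type I effectors and in 0 of 4 class I processing genes. TTCNNNGAA lay in 10 of 35 members (28.6%), against 9.55% of all genes. Of the GTPases these were Igtp and Irgm2, and of the type I effectors Bst2, Eif2ak2, Ifi35, Ifit2, Ifitm3 and Isg20. The others were Irf1 and Psmb8. Both spellings stood in 1 window in 5 members (Bst2, Eif2ak2, Ifitm3, Igtp and Irgm2), which is 14.3%, against 0.54% of all genes. A match is a run of letters and not a measured binding site.

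The upstream 250 bases of 4 genes with a paired core are shown. Isg15, Bst2 and Irgm2 were lower in KO mice of both populations, and Igtp is the neighbour and close relative of Irgm2. The genes were chosen for this motif: of the other members lower in both populations, Ifit2 had a TTCNNNGAA from position -241 and no paired core, and no window was used for Parp14. They are from RefSeq on GRCm38.p6 and run 5′ to 3′ on the gene's strand up to the base before the start, with motif matches in capitals. Isg15 lies on the minus strand at chr4:156200819-156201068, Bst2 on the minus strand at chr8:71537473-71537722, Igtp on the plus strand at chr11:58199306-58199555 and Irgm2 on the plus strand at chr11:58214727-58214976.
Isg15: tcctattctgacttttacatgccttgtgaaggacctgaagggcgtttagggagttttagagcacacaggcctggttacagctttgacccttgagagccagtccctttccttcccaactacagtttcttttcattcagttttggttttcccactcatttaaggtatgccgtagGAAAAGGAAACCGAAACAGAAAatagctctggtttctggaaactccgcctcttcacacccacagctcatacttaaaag
Bst2: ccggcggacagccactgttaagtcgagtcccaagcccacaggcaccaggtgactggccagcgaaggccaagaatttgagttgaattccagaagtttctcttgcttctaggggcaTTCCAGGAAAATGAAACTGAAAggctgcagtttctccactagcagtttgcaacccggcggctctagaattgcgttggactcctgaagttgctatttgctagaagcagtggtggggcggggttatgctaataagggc
Igtp: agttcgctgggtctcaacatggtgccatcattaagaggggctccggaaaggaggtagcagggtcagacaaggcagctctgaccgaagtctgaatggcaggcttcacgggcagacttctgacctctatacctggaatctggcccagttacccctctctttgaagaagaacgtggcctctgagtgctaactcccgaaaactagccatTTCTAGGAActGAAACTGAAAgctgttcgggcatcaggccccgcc
Irgm2: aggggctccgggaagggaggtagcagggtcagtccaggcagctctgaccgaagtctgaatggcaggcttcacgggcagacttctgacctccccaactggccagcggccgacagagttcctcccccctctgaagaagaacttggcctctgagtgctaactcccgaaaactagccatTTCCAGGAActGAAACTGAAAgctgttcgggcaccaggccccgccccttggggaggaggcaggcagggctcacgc

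In Isg15 the capitals are 3 overlapping paired cores, from position -78 to position -57 counted from the start. In Bst2 they are 1 TTCNNNGAA and 2 paired cores, where the TTCNNNGAA overlaps the first core and the cores overlap each other. In Igtp and Irgm2 a TTCNNNGAA is followed, after 2 bases, by a paired core. The upstream stretches of Igtp and Irgm2 aligned over 220 columns, 194 of them identical (88.2%), so the shared pair of motifs sits inside a largely shared sequence. Probe sequences were not used here, and whether the probes of such close relatives bind each other's RNA was not tested.

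With the values per mouse set side by side, a part of the interferon-stimulated genes was lower in KO-labelled mice of each population and none was called higher. In LSK cells 8 of the 45 members were lower and 0 higher at a limma adjusted p under 0.05 (Benjamini-Hochberg over all 22439 probes), where 2.9% of all genes were called lower and 1.74% higher. In myeloid progenitors 9 members were lower and 0 higher, where 1.74% of all genes were called lower and 0.908% higher. At an unadjusted p under 0.05, 19 members were lower and 1 higher in LSK cells, and 29 lower and 0 higher in myeloid progenitors. At that threshold 1634 of the 17741 genes were lower and 1308 higher in LSK cells, and 1163 lower and 865 higher in myeloid progenitors. The median change over the 45 members was -0.50 in LSK cells and -0.69 in myeloid progenitors, beside 0.02 and 0.00 over all genes.

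The populations share no mouse, and 5 members were called lower in both (Isg15, Ifit2, Bst2, Parp14 and Irgm2), which is 5 of the 8 in LSK cells and 5 of the 9 in myeloid progenitors. Of all genes, 0.93% were called lower in both. The change was negative in both populations in 39 members, where 27.6% of all genes were. It was positive in both in Lgals3bp alone, against 32.5% of all genes, and had opposite signs in 5 (Irf1, Oas3, Xaf1, Ifi35 and Samd9l). Both KO mice lay below both WT mice in 32 members in LSK cells, against 20.9% of all genes, and in 36 in myeloid progenitors, against 20.8%. In 28 members this held in both populations, against 9.24% of all genes. In the mean of both contrasts, which uses all 8 mice, 19 members were lower and 0 higher, where 4.85% of all genes were called lower and 3.09% higher. At an unadjusted p under 0.05 the members' counts were 34 lower and 0 higher, where 1910 of the 17741 genes were lower and 1547 higher.

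These counts rest on few mice. The LSK count was 0 without WT mouse 1, 3 without KO mouse 4, 5 without KO mouse 2, 7 or 8, and 13 without WT mouse 5 or 6. The myeloid progenitor count was 0 without KO mouse 8, 3 without WT mouse 6 and 4 without KO mouse 7. The count for the mean of both contrasts lay between 12, without KO mouse 8, and 23. In bulk RNA, fewer cells of a type and less RNA per cell cannot be told apart.

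**Figure D1:**
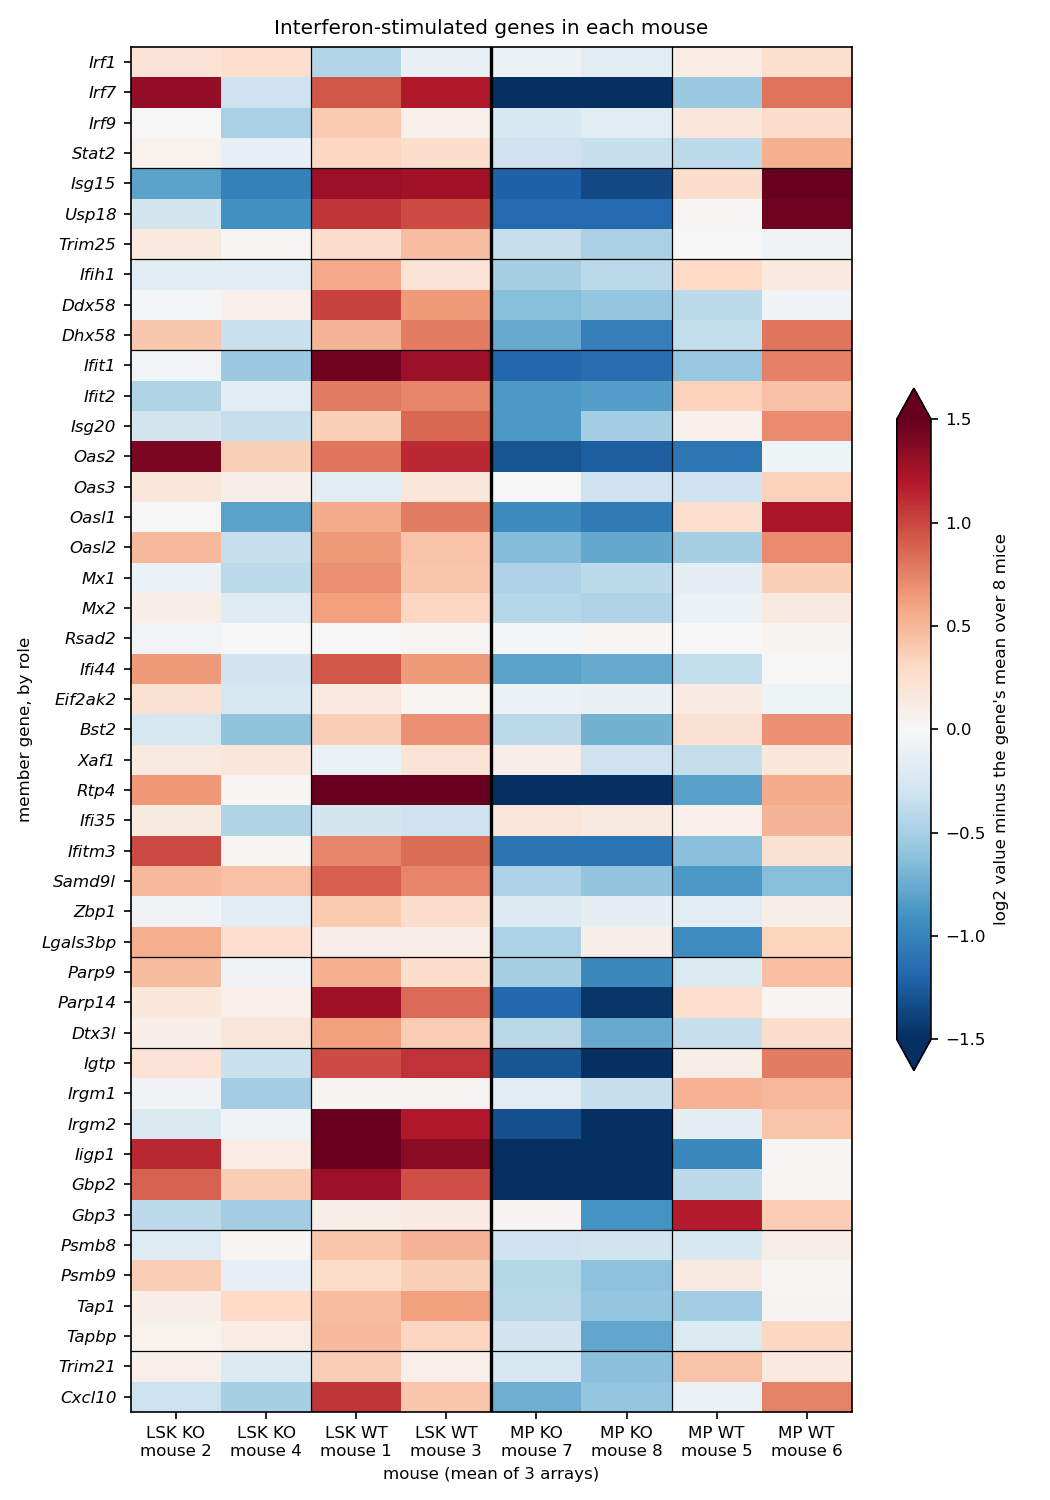
Each row is 1 of the 45 members, grouped by role, and each column 1 mouse. The colour is the mouse's log2 value (mean of 3 arrays) minus the gene's mean over the 8 mice, and MP stands for myeloid progenitors. The 2 KO myeloid progenitor mice are blue in most rows, and over all members their mean deviation was -0.65 and -0.75.

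**Figure D2:**
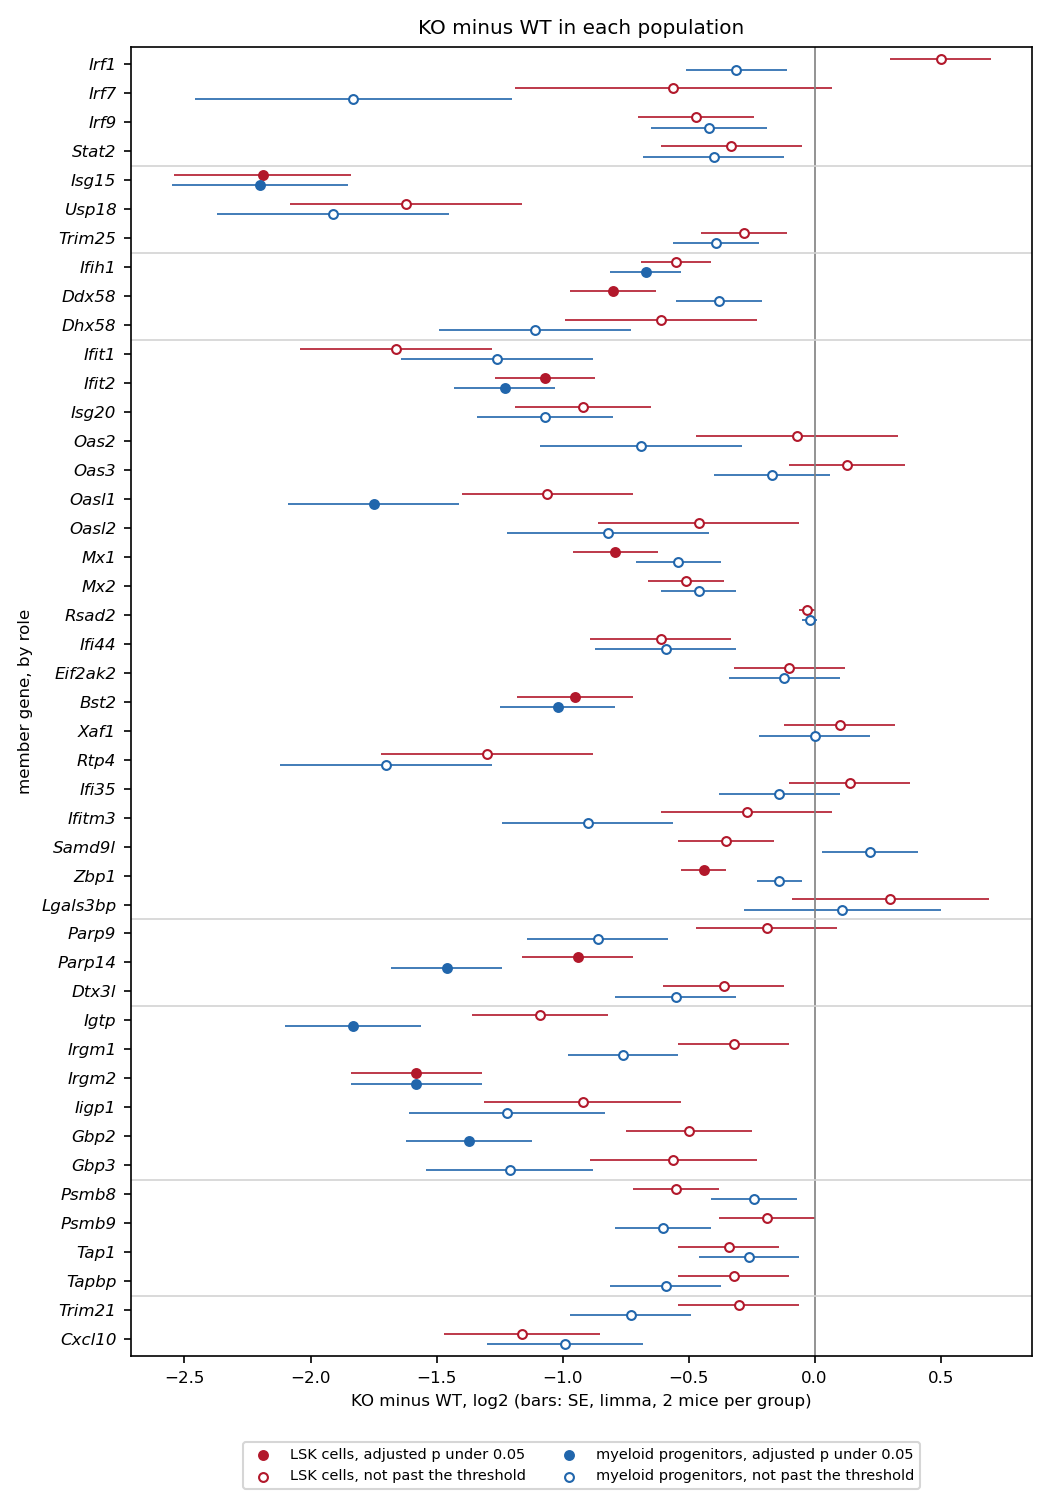
Points are the log2 differences, KO minus WT, of the 45 members in LSK cells (red) and myeloid progenitors (blue), with bars for the limma SE. Filled points passed an adjusted p of 0.05, which 8 members did in LSK cells and 9 in myeloid progenitors, all below 0.

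The ISG15 conjugation system held the lowest member of the list. Isg15 encodes a ubiquitin-like protein that is attached to other proteins during an interferon response. It read 7.34 and 7.12 in KO LSK mice against 9.43 and 9.40 in WT LSK mice, a change of -2.19 ± 0.35 (SE, adjusted p = 0.00921), or 4.55-fold lower. In myeloid progenitors Isg15 read 6.92 and 6.79 in KO mice against 8.41 and 9.70 in WT mice (-2.20 ± 0.35, adjusted p = 0.0125). All 4 KO mice lay below all 4 WT mice. Usp18 encodes the protease that removes ISG15 and that also damps signalling at the type I receptor. It read 7.12 and 6.48 in KO LSK mice against 8.46 and 8.37 in WT ones, and 6.22 and 6.22 in KO myeloid progenitors against 7.40 and 8.85 in WT ones. Usp18 passed only in the mean of both contrasts (-1.76 ± 0.33, adjusted p = 0.0274), and its WT myeloid progenitor mice stood further apart than the mice of any other group. Trim25, a ubiquitin ligase that activates RIG-I, had changes of -0.28 ± 0.17 in LSK cells and -0.39 ± 0.17 in myeloid progenitors and passed nowhere (further paired changes are in this order). Ube2l6, the conjugating enzyme for ISG15, is no member but was measured. It was lower in KO myeloid progenitors (-1.20 ± 0.20, adjusted p = 0.0104) and did not pass in LSK cells (-0.64 ± 0.20, adjusted p = 0.118).

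The 3 cytoplasmic RNA sensors had negative changes in both populations, with no overlap between KO and WT mice, where 9.24% of all genes had both KO mice below both WT mice in both populations. Ddx58 encodes RIG-I, the sensor of RNA ends. It read 7.01 and 7.11 in KO LSK mice against 8.05 and 7.67 in WT LSK mice (-0.80 ± 0.17, adjusted p = 0.0240). In myeloid progenitors Ddx58 read 6.39 and 6.46 in KO mice against 6.63 and 6.98 in WT mice (-0.38 ± 0.17, adjusted p = 0.450). Ifih1 encodes MDA5, which binds long double-stranded RNA. It read 6.30 and 6.39 in KO myeloid progenitors against 7.09 and 6.93 in WT ones (-0.67 ± 0.14, adjusted p = 0.0328). In LSK cells Ifih1 read 6.62 and 6.63 in KO mice against 7.36 and 7.00 in WT mice (-0.55 ± 0.14, adjusted p = 0.0581). Both sensors passed in the mean of both contrasts, with adjusted p = 0.0120 for Ddx58 and 0.00374 for Ifih1. Dhx58, which encodes the regulator LGP2, had changes of -0.61 ± 0.38 and -1.11 ± 0.38 and did not pass.

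Among the 20 type I antiviral effectors, 4 were lower in KO LSK cells (Ifit2, Mx1, Bst2 and Zbp1), 3 were lower in KO myeloid progenitors (Ifit2, Oasl1 and Bst2) and 9 were lower in the mean of both contrasts. Of all genes 2.9%, 1.74% and 4.85% were called lower in these comparisons. None of the 20 was called higher, and at an unadjusted p under 0.05 the counts were 9 lower and 0 higher in each population. At that threshold 1634 of the 17741 genes were lower in LSK cells and 1163 in myeloid progenitors. The median change of the 20 effectors was -0.45 in LSK cells and -0.57 in myeloid progenitors.

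Ifit1 and Ifit2 encode proteins that bind viral RNA or the translation machinery. Ifit2 read 8.89 and 9.18 in KO LSK mice against 10.13 and 10.08 in WT LSK mice (-1.07 ± 0.20, adjusted p = 0.0143). It read 8.49 and 8.53 in KO myeloid progenitors against 9.69 and 9.78 in WT ones (-1.23 ± 0.20, adjusted p = 0.00953). The KO mice lay below the WT mice in both populations, and the mice of a group stood close together. Ifit1 read 8.04 and 7.52 in KO LSK mice against 9.53 and 9.36 in WT ones, and 6.91 and 6.94 in KO myeloid progenitors against 7.52 and 8.84 in WT ones. Ifit1 passed in the mean of both contrasts (-1.46 ± 0.27, adjusted p = 0.0138).

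The OAS family makes or resembles the makers of the short oligoadenylates that activate RNase L, and its 4 measured members did not move alike. Oasl1, which in mice represses translation of Irf7, read 7.02 and 6.92 in KO myeloid progenitors against 8.23 and 9.20 in WT ones (-1.75 ± 0.34, adjusted p = 0.0318). In LSK cells it read 7.99 and 7.17 in KO mice against 8.54 and 8.74 in WT mice (-1.06 ± 0.34, adjusted p = 0.144). Oas2 read 10.18 and 9.11 in KO LSK mice against 9.56 and 9.88 in WT ones, so that the groups overlapped (-0.07 ± 0.40). In myeloid progenitors Oas2 read 7.47 and 7.52 in KO mice against 7.67 and 8.69 in WT mice (-0.69 ± 0.40). Oas3 (0.13 ± 0.23 and -0.17 ± 0.23) and Oasl2 (-0.46 ± 0.40 and -0.82 ± 0.40) did not pass either.

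Bst2 encodes tetherin, which holds budding virus at the cell surface and is also a surface marker of plasmacytoid dendritic cells in mice. It read 12.23 and 11.88 in KO LSK mice against 12.85 and 13.16 in WT LSK mice (-0.95 ± 0.23, adjusted p = 0.0428). It read 12.08 and 11.77 in KO myeloid progenitors against 12.71 and 13.17 in WT ones (-1.02 ± 0.23, adjusted p = 0.0452). The KO and WT mice did not overlap, also across populations. Isg20 encodes an exonuclease that degrades single-stranded RNA. It read 9.81 and 9.74 in KO LSK mice against 10.44 and 10.94 in WT ones, and 9.23 and 9.58 in KO myeloid progenitors against 10.15 and 10.79 in WT ones. It passed in the mean of both contrasts (-0.99 ± 0.19, adjusted p = 0.00916), while its other probes, both dimmer, had changes of 0.04 ± 0.14 and -0.05 ± 0.05. Rtp4, an interferon-induced chaperone of receptors, read 11.00 and 10.38 in KO LSK mice against 12.10 and 11.88 in WT ones. In myeloid progenitors Rtp4 read 8.70 and 8.35 in KO mice against 9.54 and 10.91 in WT mice, and it passed in the mean of both contrasts (-1.50 ± 0.29, adjusted p = 0.0170), while its dimmer probe had a change of -0.41 ± 0.18 there (adjusted p = 0.267).

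Mx1 and Mx2 encode dynamin-like antiviral GTPases, and the C57BL/6 strain is known to carry a defective Mx1 allele. Mx1 read 6.34 and 6.04 in KO LSK mice against 7.12 and 6.85 in WT LSK mice (-0.79 ± 0.17, adjusted p = 0.0336). Its values in KO myeloid progenitors were 5.97 and 6.03, against 6.30 and 6.79 in WT ones (-0.54 ± 0.17, adjusted p = 0.196). Zbp1, a sensor of Z-form nucleic acids, read 6.18 and 6.06 in KO LSK mice against 6.63 and 6.50 in WT ones (-0.44 ± 0.09, adjusted p = 0.0220). In myeloid progenitors Zbp1 read 6.03 and 6.08 in KO mice against 6.08 and 6.32 in WT mice, and the groups met (-0.14 ± 0.09). Both genes stayed below the median probe mean of 7.20 in all 8 mice, so these differences are between dim values. Mx2 read 6.98 and 6.70 in KO LSK mice against 7.49 and 7.20 in WT ones, and 6.45 and 6.43 in KO myeloid progenitors against 6.80 and 7.01 in WT ones. Mx2 passed in the mean of both contrasts (-0.49 ± 0.11, adjusted p = 0.0202). Rsad2, which encodes viperin, lay between 5.81 and 5.89 in all 8 mice, near the lowest value of the table.

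The other 7 type I effectors passed in no KO against WT contrast. Ifi44 had changes of -0.61 ± 0.28 and -0.59 ± 0.28 in LSK cells and myeloid progenitors. Ifitm3, which blocks viral entry, read 13.90 and 12.95 in KO LSK mice against 13.65 and 13.75 in WT ones, and 11.81 and 11.82 in KO myeloid progenitors against 12.29 and 13.14 in WT ones. Eif2ak2, which encodes the kinase PKR, had changes of -0.10 ± 0.22 and -0.12 ± 0.22. Samd9l had changes of -0.35 ± 0.19 in LSK cells and 0.22 ± 0.19 in myeloid progenitors, and was the 1 member whose KO myeloid progenitor mice both lay above both WT mice, as in 20.3% of all genes. Lgals3bp, a secreted glycoprotein, had changes of 0.30 ± 0.39 and 0.11 ± 0.39. It and Irf1 were the 2 members whose KO LSK mice both lay above both WT mice, against 25.7% of all genes. Xaf1 and Ifi35 had changes between -0.14 and 0.14.

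The PARP and DTX3L complex modifies proteins with ADP-ribose and ubiquitin. Parp14 read 10.97 and 10.89 in KO LSK mice against 12.08 and 11.66 in WT LSK mice (-0.94 ± 0.22, adjusted p = 0.0386). It read 9.64 and 9.35 in KO myeloid progenitors against 11.06 and 10.85 in WT ones (-1.46 ± 0.22, adjusted p = 0.00624). The groups did not overlap in either population. For its neighbours in function neither change passed: Parp9 stood at -0.19 ± 0.28 and -0.86 ± 0.28, and Dtx3l, the ubiquitin ligase bound to PARP9, at -0.36 ± 0.24 and -0.55 ± 0.24.

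The interferon-gamma GTPases guard against bacteria and parasites that live in vacuoles: the immunity-related GTPases Igtp, Irgm1, Irgm2 and Iigp1, and the guanylate-binding proteins Gbp2 and Gbp3. In each of the 6 genes both KO mice lay below both WT mice in both populations, as in 9.24% of all genes. In KO LSK cells 1 of the 6 was called lower (Irgm2), in KO myeloid progenitors 3 (Irgm2, Igtp and Gbp2) and in the mean of both contrasts 4, with 0 higher in each, where 2.9%, 1.74% and 4.85% of all genes were called lower. At an unadjusted p under 0.05, 3 were lower in KO LSK cells and 6 in KO myeloid progenitors, with 0 higher. At that threshold 1634 of the 17741 genes were lower in LSK cells and 1163 in myeloid progenitors.

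Irgm2 read 9.25 and 9.42 in KO LSK mice against 11.15 and 10.68 in WT LSK mice (-1.58 ± 0.26, adjusted p = 0.00622). It read 8.15 and 7.91 in KO myeloid progenitors against 9.33 and 9.89 in WT ones (-1.58 ± 0.26, adjusted p = 0.00862). The change was 2.98-fold in each. Igtp, also called Irgm3, read 9.0 and 8.77 in KO myeloid progenitors against 10.37 and 11.05 in WT ones (-1.83 ± 0.27, adjusted p = 0.00584). In LSK cells Igtp read 10.50 and 9.95 in KO mice against 11.26 and 11.37 in WT mice (-1.09 ± 0.27, adjusted p = 0.0520). Irgm1, which mouse stem cells are known to need for normal self-renewal, had changes of -0.32 ± 0.22 and -0.76 ± 0.22 and did not pass. Iigp1 read 10.29 and 9.28 in KO LSK mice against 10.90 and 10.52 in WT ones, and 7.37 and 7.59 in KO myeloid progenitors against 8.21 and 9.19 in WT ones. It missed the threshold in the mean of both contrasts (-1.07 ± 0.28, adjusted p = 0.0516).

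Gbp2 read 8.20 and 8.25 in KO myeloid progenitors against 9.39 and 9.80 in WT ones (-1.37 ± 0.25, adjusted p = 0.0154). In LSK cells Gbp2 read 10.67 and 10.16 in KO mice against 11.07 and 10.76 in WT mice (-0.50 ± 0.25, adjusted p = 0.367). Gbp3 read 11.45 and 10.51 in KO myeloid progenitors against 12.59 and 11.80 in WT ones, and 11.02 and 10.89 in KO LSK mice against 11.50 and 11.54 in WT ones. It passed in the mean of both contrasts (-0.89 ± 0.23, adjusted p = 0.0473).

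**Figure D3:**
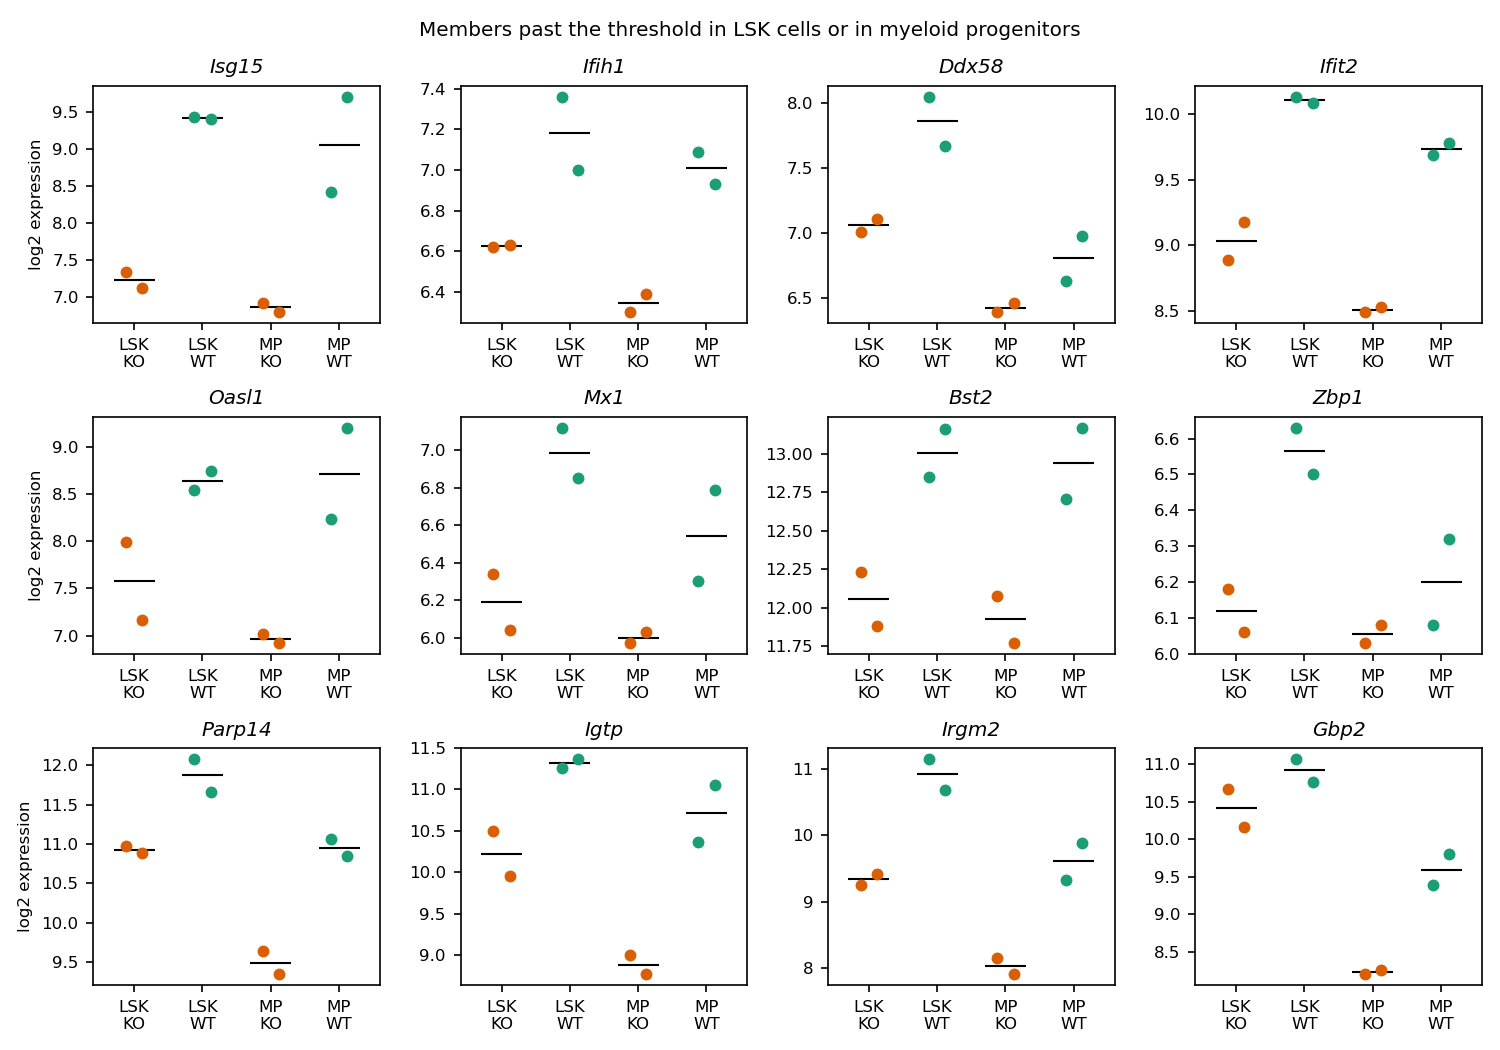
Each panel is 1 of the 12 members called lower in LSK cells or myeloid progenitors (MP), with a point per mouse on the log2 scale (axes do not start at 0) and a line at the group mean. In all panels but that of Zbp1 in myeloid progenitors, whose lowest WT mouse and highest KO mouse both read 6.08, the KO mice lie below the WT mice of their population.

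Set beside each other, the GTPases had the lower medians. Their median change was -0.74 in LSK cells and -1.29 in myeloid progenitors, against -0.45 and -0.57 for the type I effectors. Without KO mouse 4 the GTPase median in LSK cells was -0.46, and without WT mouse 6 the type I median in myeloid progenitors was -0.26. Leaving out a mouse moves both lists, so these values are not to be set against the other list's median over all mice. No test was made between the lists, which were chosen with earlier results known. Averaged over its genes and taken against each gene's mean over 8 mice, the GTPase list stood at 0.26 and -0.16 in KO LSK mice, against 0.97 and 0.80 in WT LSK mice. It stood at -1.02 and -1.24 in KO myeloid progenitors, against 0.05 and 0.35 in WT ones. The type I list stood at 0.24 and -0.16 in KO LSK mice, against 0.53 and 0.54 in WT LSK mice. It stood at -0.58 and -0.61 in KO myeloid progenitors, against -0.29 and 0.32 in WT ones. For both lists the KO mice lay below the WT mice in each population.

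**Figure D4:**
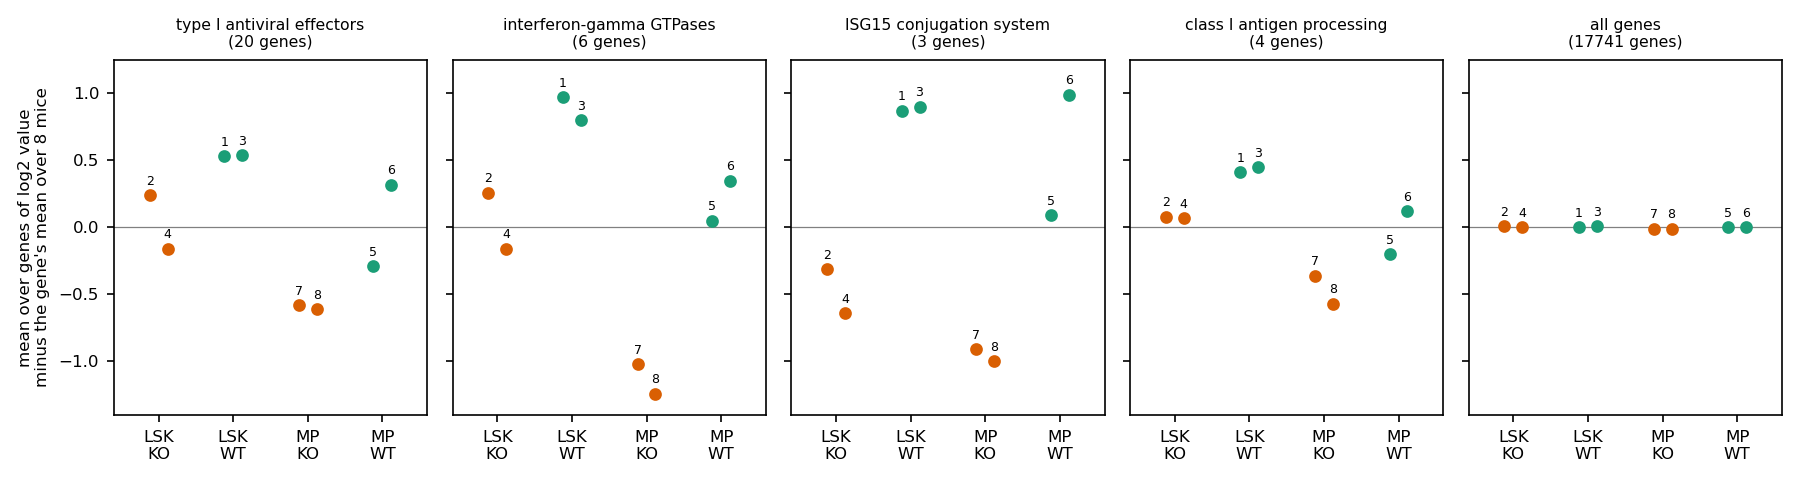
Each point is 1 mouse (number beside it), and its height is the mean over a list's genes of the log2 value minus the gene's mean over 8 mice. The lists are type I antiviral effectors, interferon-gamma GTPases, the ISG15 system, class I antigen processing and all 17741 genes, and MP stands for myeloid progenitors. The GTPases span -1.24 to 0.97, while the mean over all genes stays near 0.

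None of the 4 class I antigen processing genes was called in either population or in the mean (limma), and at an unadjusted p under 0.05 the counts were 1 lower in LSK cells, 2 lower in myeloid progenitors and 0 higher. At that threshold 1634 of the 17741 genes were lower in LSK cells and 1163 in myeloid progenitors. Psmb8 and Psmb9 encode subunits of the immunoproteasome, Tap1 a chain of the peptide transporter and Tapbp its partner tapasin. Their changes lay between -0.55 and -0.19 in LSK cells and between -0.60 and -0.24 in myeloid progenitors, all below 0. The promoter windows of Tap1 and Psmb9, which are neighbours, share 275 bases.

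None of the 4 transcription factors was called either, and at an unadjusted p under 0.05 Irf1 was higher in LSK cells and 1 factor was lower in myeloid progenitors. At that threshold 1308 of the 17741 genes were higher in LSK cells and 1163 lower in myeloid progenitors. Irf7, which amplifies type I interferon production, read 11.48 and 9.85 in KO LSK mice against 11.08 and 11.36 in WT ones (-0.56 ± 0.63). In myeloid progenitors Irf7 read 8.50 and 8.40 in KO mice against 9.60 and 10.97 in WT mice (-1.83 ± 0.63, adjusted p = 0.334). Its KO LSK mice lay on both sides of the WT LSK mice. Irf1, which interferon-gamma induces, read 9.04 and 9.09 in KO LSK mice against 8.40 and 8.73 in WT ones (0.50 ± 0.20), and 8.76 and 8.67 in KO myeloid progenitors against 8.95 and 9.09 in WT ones (-0.31 ± 0.20). Irf9 (-0.47 ± 0.23 and -0.42 ± 0.23) and Stat2 (-0.33 ± 0.28 and -0.40 ± 0.28), both part of the type I complex, did not pass.

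Cxcl10, a chemokine that attracts T cells, read 6.41 and 6.23 in KO LSK mice against 7.80 and 7.15 in WT ones, and 5.99 and 6.15 in KO myeloid progenitors against 6.64 and 7.47 in WT ones. It passed in the mean of both contrasts (-1.07 ± 0.22, adjusted p = 0.0309). Trim21, a cytoplasmic antibody receptor, had changes of -0.30 ± 0.24 and -0.73 ± 0.24, while its dimmer probe had changes of -1.03 ± 0.41 and 0.10 ± 0.41. None of these passed.

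The change differed between the populations beyond the threshold in 0 of 45 members, where 0.062% of all genes were called in either direction. At an unadjusted p under 0.05 there were 3: Gbp2 with a difference of 0.87 ± 0.35 (LSK minus myeloid progenitor change, adjusted p = 0.745), Irf1 with 0.81 ± 0.29 (adjusted p = 0.644) and Zbp1 with -0.30 ± 0.13 (adjusted p = 0.799). At that threshold 526 of all 17741 genes had a positive difference and 600 a negative one, a share near that of the members. The members' median difference was 0.18, beside 0.01 over all genes. The lower change was that in myeloid progenitors in 32 of the 45, and in 9471 of the 17741 genes. Fitted to single arrays with a random mouse effect (limma), Gbp2 alone passed, with an SE of 0.22 (adjusted p = 0.0255). That fit takes the same within-mouse correlation (0.442) for all genes. Its SE can be too small for genes whose mice stand further apart, as those of the members did. Across the 45 members the LSK and myeloid progenitor changes correlated with a Pearson r of 0.787, beside 0.548 across all 17741 genes. The arrays, the platform and the normalization are shared, and genes are not independent replicates.

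The mice of a group were further apart in these genes than in genes at large. In WT myeloid progenitors the median absolute difference between the mice was 0.513 over the members and 0.144 over all genes, and mouse 6 was the higher in 37 of 45 members, against 51.7% of all genes. In 9 members the WT mice were more than 1 apart (Irf7, Isg15, Usp18, Dhx58, Ifit1, Oas2, Oasl2, Rtp4 and Lgals3bp), and mouse 6 was the higher in each. Of the type I effectors 19 of 20 were higher in mouse 6, and of the GTPases 4 of 6. In KO LSK cells mouse 2 was the higher in 34 of 45 members (51.2% of all genes), with a median absolute difference of 0.285 beside 0.151 over all genes, and Irf7, Oas2 and Iigp1 were more than 1 apart. In WT LSK cells the medians were 0.217 and 0.124, and in KO myeloid progenitors 0.126 and 0.107, with no member more than 1 apart in either. Within a mouse, the median SD over its 3 arrays was 0.101 for the members and 0.093 for all genes. Mice 5 and 6, like mice 1 and 3, also differed in the Kdm5d signal, and mice 2 and 4 did not.

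Many members also differed between the populations, with LSK cells the higher. Between KO mice 12 members were higher in LSK cells than in myeloid progenitors and 0 lower, where 7.26% of all genes were called higher and 5.49% lower. Between WT mice the counts were 10 higher and 0 lower, where 8.08% were called higher and 5.46% lower. At an unadjusted p under 0.05 the counts were 21 higher and 0 lower between KO mice, and 18 higher and 2 lower between WT mice. At that threshold 2346 of the 17741 genes were higher and 2303 lower between KO mice, and 2466 higher and 2381 lower between WT mice. The comparisons share no mouse, and 9 members were called in both (Ddx58, Oas2, Rtp4, Samd9l, Parp14, Irgm2, Iigp1, Gbp2 and Tap1). The WT count was 2 without mouse 1 and 4 without mouse 5, and the KO count was 3 without mouse 8 and 6 without mouse 2 or 7.

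Iigp1 had the largest difference in both genotypes, 2.31 ± 0.39 between KO populations (adjusted p = 0.00637) and 2.01 ± 0.39 between WT populations (adjusted p = 0.0103). Rtp4 differed by 2.17 ± 0.42 between KO populations (adjusted p = 0.0121) and by 1.77 ± 0.42 between WT populations (adjusted p = 0.0264). Oas2 differed by 2.15 ± 0.40 (adjusted p = 0.0104) between KO and by 1.54 ± 0.40 (adjusted p = 0.0389) between WT populations. Gbp2 differed by 2.19 ± 0.25 between KO populations (adjusted p = 0.000481) and by 1.32 ± 0.25 between WT populations (adjusted p = 0.00611). Samd9l, a restraint on cell growth and on viral translation, differed by 0.99 ± 0.19 between KO (adjusted p = 0.00729) and by 1.56 ± 0.19 between WT populations (adjusted p = 0.000501), though it did not pass between KO and WT mice. The sort separates the populations by Sca1, the product of the interferon-induced gene Ly6a, and its part in this difference was not tested.

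**Figure D5:**
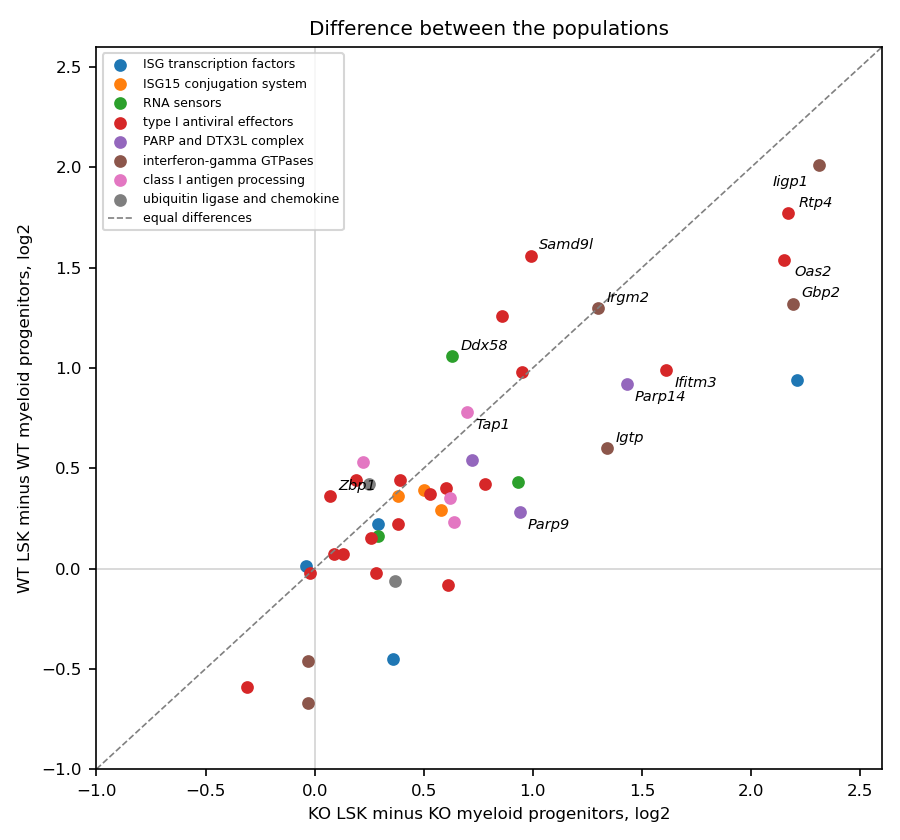
Each point is a member. The x axis is the log2 difference of KO LSK cells minus KO myeloid progenitors, the y axis the same difference between the WT populations, the colours are the roles, and the names are given for members called in either comparison. The dashed line marks equal differences, and Iigp1 lies furthest out, at 2.31 and 2.01.

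Of the rest of the pathway, 75 genes of 7 further lists had a probe. In LSK cells 5 of them were lower and 0 higher, in myeloid progenitors 3 were lower and 1 higher. Of all genes 2.9% were called lower and 1.74% higher in LSK cells, and 1.74% lower and 0.908% higher in myeloid progenitors. For the pathway genes, at an unadjusted p under 0.05 the counts were 16 lower and 4 higher, and 20 lower and 1 higher. At that threshold 1634 of the 17741 genes were lower and 1308 higher in LSK cells, and 1163 lower and 865 higher in myeloid progenitors. The median change of the pathway genes was -0.16 in each population. No ligand passed: of 15 listed interferon genes 6 had a probe (Ifnb1, Ifna12, Ifna13, Ifne, Ifnk and Ifng), their changes lay between -0.07 and 0.21, and the count was 0 also at an unadjusted p under 0.05 (limma). Ifnb1 lay between 6.20 and 6.33 in all 8 mice. Among the receptors, Ifnar1 had changes of -0.18 ± 0.18 and -0.20 ± 0.18, and Ifngr1 of 0.13 ± 0.25 and -0.12 ± 0.25. Ifngr2 had changes of 0.28 ± 0.23 and -0.56 ± 0.23, without passing. Ifnar2, with values between 5.78 and 5.92, lay near the lowest values of the table (-0.01 ± 0.03 and -0.04 ± 0.03). Ifnlr1, the receptor for lambda interferons, was lower in KO LSK cells (-0.83 ± 0.15, adjusted p = 0.0128), and its change in myeloid progenitors was -0.51 ± 0.15 (adjusted p = 0.152). Tyk2 was not analysed here.

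Samhd1, which breaks down nucleotides and restrains retroviruses, was lower in both populations. It read 12.96 and 13.00 in KO LSK mice against 13.88 and 13.68 in WT ones (-0.80 ± 0.17, adjusted p = 0.0243), and 12.06 and 11.97 in KO myeloid progenitors against 12.75 and 12.86 in WT ones (-0.79 ± 0.17, adjusted p = 0.0353). The endosomal RNA receptors Tlr3 (-0.75 ± 0.14, adjusted p = 0.0126) and Tlr7 (-0.98 ± 0.15, adjusted p = 0.00522) were lower in KO LSK cells, as was the interferon-induced kinase gene Cmpk2 (-0.95 ± 0.24, adjusted p = 0.0478). Stat4, a STAT of interleukin-12 signalling, was lower in KO myeloid progenitors (-1.29 ± 0.21, adjusted p = 0.00956). The 1 gene called higher was Socs3, an inhibitor of JAK kinases. It read 9.80 and 9.49 in KO myeloid progenitors against 7.51 and 7.42 in WT ones (2.18 ± 0.32, adjusted p = 0.00507). In LSK cells Socs3 read 11.60 and 11.19 in KO mice against 11.19 and 10.16 in WT mice (0.72 ± 0.32, adjusted p = 0.298).

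Some markers of other cell types were also called between KO and WT mice. Of all genes 2.9% were called lower and 1.74% higher in LSK cells, and 1.74% lower and 0.908% higher in myeloid progenitors. At an unadjusted p under 0.05, 1634 of 17741 genes were lower and 1308 higher in LSK cells, and 1163 lower and 865 higher in myeloid progenitors. Of 8 markers of plasmacytoid dendritic cells with a probe, 2 were lower in KO LSK cells (Ccr9 and Spib) and 2 in KO myeloid progenitors (Spib and Tcf4). The list's mean level per mouse was 7.82 to 8.03 in KO LSK cells against 8.45 to 8.54 in WT LSK cells, and 7.45 to 7.51 in KO myeloid progenitors against 7.84 to 7.87 in WT ones. Siglech, a defining marker, lay between 6.02 and 6.94 in all mice. Of 7 B cell markers 3 were lower in both populations (Ms4a1, Vpreb3 and Igll1), and the list's mean level was 7.09 to 7.30 in KO LSK cells against 8.78 to 8.98 in WT ones, and 7.17 to 7.20 in KO myeloid progenitors against 8.49 to 8.71 in WT ones. Vpreb3, a gene of B cell precursors, had changes of -5.13 ± 0.26 and -4.78 ± 0.26, while Pax5 stayed under 6.5 in all mice. Of 8 monocyte and macrophage markers, Mpeg1 was lower and Cd68 higher in KO LSK cells, and Mpeg1 and Adgre1 were lower in KO myeloid progenitors. Their mean level was 9.38 to 9.58 in KO LSK cells against 9.48 to 9.76 in WT ones, and 10.02 to 10.41 in KO myeloid progenitors against 10.59 to 10.88 in WT ones. Of 7 T and NK cell markers, Cd3d and Gzma were lower and Nkg7 higher in KO LSK cells, and none was called in myeloid progenitors (limma, 1 lower and 0 higher at an unadjusted p under 0.05). Their mean level was 7.27 to 7.41 in KO LSK cells against 7.37 to 7.63 in WT ones, and 7.39 to 7.45 in KO myeloid progenitors against 7.56 to 7.63 in WT ones. Of 7 neutrophil markers none was called in either population (0 lower and 0 higher at an unadjusted p under 0.05 in LSK cells, 1 lower and 2 higher in myeloid progenitors), with mean levels of 11.69 to 11.77 in KO LSK cells against 11.47 to 11.83 in WT ones, and 11.18 to 11.37 in KO myeloid progenitors against 10.84 to 11.08 in WT ones. Of the sort's 12 markers, Elane (1.91 ± 0.39, adjusted p = 0.0311) and Ctsg (1.21 ± 0.29, adjusted p = 0.0471), which encode granule proteases of myeloid cells, were higher in KO LSK cells, and 0 were called in KO against WT myeloid progenitors (limma, 1 lower and 2 higher at an unadjusted p under 0.05). A list's mean level can rest on few genes. Median changes in LSK cells and myeloid progenitors were -0.52 and -0.07 for plasmacytoid dendritic cell markers and -0.6 and -0.43 for B cell markers. They were -0.42 and -0.68 for monocyte and macrophage markers, -0.16 and -0.18 for T and NK cell markers, and 0.07 and 0.33 for neutrophil markers. The part of these cell types in the lower interferon-stimulated genes was not tested. Between WT mice 5 and 6, which differed most in the members, the median difference, mouse 5 minus mouse 6, was -0.51 over the members. It was 0.05 over the plasmacytoid dendritic cell markers, -0.19 over the B cell markers (with Igll1 more than 1 apart), -0.06 over the T and NK cell markers, 0.28 over the monocyte and macrophage markers (with Ccr2 more than 1 apart) and 0.31 over the neutrophil markers.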

How the data were processed

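The deposited values are log2 expression values that the authors processed, and limma is the tool in the submitters' processing notes, which give no version. The log scale was read from the values. Sorted, no 2 of the 24 arrays are more than 0.0451 apart at the same rank, so their distributions had been made equal. The sources used here do not give the background correction. Per the labels' protocols, total RNA was amplified by in vitro transcription and coupled to Cy5. Arrays carry no count depth, and the 2 mice per group limit the precision.

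Probes were named from the platform annotation, updated through RefSeq on GRCm38.p6: of 22439 probes 18213 matched by symbol and 2126 by synonym, 36 kept the array's name and 2064 had none. Irf1, Rtp4 and Trim21 had 2 probes and Isg20 had 3, and the brightest was used. The 3 arrays of a mouse were averaged. The 8 mouse means of all 4 groups were fitted together with limma 3.58.1 in R 4.3.3 (eBayes with trend and robust options). It left 4 residual degrees of freedom, to which the prior added 6.91 in the median. Two-sided p-values took the Benjamini-Hochberg adjustment over the whole table, and 0.05 was the threshold. The fit was tested on simulated data with known changes and noise drawn independently for each probe. That does not test the calls made on these mice. Whether mice of a group were littermates is not stated.

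The members, the lists and the tests were chosen with earlier results of these data known, and lists are therefore described by counts and medians without a test. Any member could be named, with mouse values for members past the threshold in a KO against WT contrast or in the mean of both, and for others where a family is described. For the populations, the called members with the 5 largest differences between WT mice were named. From the pathway lists, genes past the threshold were named, and always Ifnar1, Ifnar2, Ifngr1, Ifngr2 and Ly6a. Bap1, Kdm5d and the markers served as checks.

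The alternatives tried were a fit to single arrays with a random mouse effect, that fit with the array number as replicate block too, the compared groups alone, no trend and robust options, each mouse left out, the Kdm5d signal as a covariate, both mice with that signal left out, probes above the 25th or the 50th percentile, the mean of a gene's probes, another centring and cyclic loess.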

Additional observations from a re-analysis of the deposited data

How the results depend on the processing

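No result past the threshold reversed its direction under the 19 alternatives. In the fit to single arrays with a random mouse effect, 21 members were lower in KO LSK cells, 28 in KO myeloid progenitors and 34 in the mean of both contrasts, and 1 (Gbp2) differed between the populations' changes. LSK cells were then higher than myeloid progenitors in 24 members between KO mice and 20 between WT mice, and 1 (Ifi35) was lower between WT mice. With the array number added as a replicate block these counts were 21, 28, 34, 1, 24, 18 and 2. The labels number the arrays 1 to 3 within each mouse, so this block pairs no mice. Both fits to single arrays take the same within-mouse correlation for all genes (0.442 and 0.443). The members' mice stood further apart than those of genes at large, so these counts may be too high. Without the trend and robust options the counts were 2 in KO LSK cells, 4 in KO myeloid progenitors, 12 in the mean and 6 between WT populations. With the compared groups fitted alone, Ddx58, Ifit2, Bst2, Zbp1 and Parp14 lost their call in KO LSK cells, while Isg15, Mx1 and Irgm2 kept it. Of the myeloid progenitor calls, that of Isg15 alone was lost there. Without both mice with a Kdm5d signal, 4 members were lower in KO LSK cells, of which 1 (Isg15) was among the 8, and 4 of the 9 calls in myeloid progenitors remained (Isg15, Oasl1, Igtp and Irgm2). In that fit 1 member was higher in WT LSK cells than in WT myeloid progenitors, and the GTPase median in myeloid progenitors was -1.64. Leaving out each mouse gave 0 to 13 members in KO LSK cells, 0 to 12 in KO myeloid progenitors, 12 to 23 in the mean, 3 to 15 between KO populations and 2 to 15 between WT populations. It gave medians of -0.78 to -0.26 for type I effectors in myeloid progenitors, and of -1.06 to -0.46 in LSK cells and -1.64 to -1.23 in myeloid progenitors for the GTPases. These fits have fewer mice, and a lone mouse is assumed to vary like the other groups. All 8 LSK calls were lost without mouse 1 and all 9 myeloid progenitor calls without mouse 8. Of the 19 calls in the mean, 9 passed under every alternative that gave them a value (Isg15, Ifih1, Ifit2, Oasl1, Bst2, Parp14, Igtp, Irgm2 and Gbp2). Isg20 did not pass as the mean of its 3 probes (-0.33, limma adjusted p = 0.207). With the Kdm5d signal as a covariate, Ddx58, Mx2, Zbp1, Gbp3 and Cxcl10 did not pass in the mean. Ddx58, Mx1 and Parp14 then lost their call in KO LSK cells, and Ifih1 lost its call in KO myeloid progenitors. No KO mouse had that signal. Low values limit what the arrays can show. Rsad2 lay near the table's floor in all 8 mice, and Mx1 and Zbp1 lay below the median probe mean in all 8. Among other members, Cxcl10 read 5.99 to 6.41 in KO mice and Usp18 read 6.22 in both KO myeloid progenitor mice.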
